A study of Mus musculus with 21 samples.

Results

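The genes described here are the Wnt ligands, their receptors, the factors that secrete them and the proteins that hold them back, in newborn mouse subcommissural organ (SCO) and hippocampus. They were taken by symbol from the protein-coding genes of the deposited table: every gene named as a Wnt, Fzd (Frizzled), Sfrp, Dkk, Rspo, Lgr4 to Lgr6, Lrp5 or Lrp6, Ror, Axin, Nkd or Kremen gene, with Wls, Porcn, Notum, Wif1, Znrf3, Rnf43, Frzb, Ryk and Draxin. That gave 59 genes of the 31883 in the table, 17 ligands, 2 secretion factors, 14 receptors, 8 genes of the R-spondin module, 14 extracellular antagonists and 4 intracellular feedback genes. The rule uses symbols and no threshold on expression.

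Both tissues came from C57BL/6 mice with no other allele or treatment named. The SCO, a small ependymal gland in the roof of the third ventricle, is represented by 4 libraries from postnatal day 0 (P0), and the hippocampus at the same age by 5. Another 12 samples of the series, from day 60, were not analysed here. The labels do not say whether samples came from separate animals or pools, so p-values reflect only how far these samples vary, and that variation may be technical.

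Wnt proteins are secreted, lipid-modified signals. Porcn attaches the lipid, Wls carries the finished ligand to the cell surface, and Frizzled receptors with Lrp5 or Lrp6 pass the signal to beta-catenin, which acts in the nucleus with TCF and LEF factors. R-spondins, through Lgr receptors, remove Znrf3 and Rnf43, the ligases that clear Frizzled, while Sfrp, Dkk, Wif1, Notum and Draxin proteins limit the ligand or its receptors. In the embryo the dorsal midline of the brain, from which the SCO forms, and the hem beside the hippocampus are both known sources of Wnt ligands.

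Wls stood apart in the SCO. Its values, in normalized counts (reads divided by a size factor for each library), were 33418, 49438, 42868 and 26668 in SCO replicates 1 to 4. In hippocampus replicates 1 to 5 they were 3817, 1421, 2665, 4045 and 5244. Every SCO library was above every hippocampus library, and the lowest SCO value was several times the highest hippocampus value. The mean was 38098 ± 10065 (SD, n = 4) against 3438 ± 1452 (SD, n = 5), 11.1 times as high. Wls rose by 3.56 on the log2 scale (adjusted p = 0.000792 in limma, SE 0.37), where the log2 fold change is the SCO mean minus the hippocampus mean of log2(value + 1). The call held with each of the 9 libraries left out (adjusted p 0.000592 to 0.00384) and in edgeR on the recovered reads (adjusted p = 0.00189). In the authors' deposited table the log2 fold change of Wls was 3.47 (SE 0.38) with an adjusted p of 5.2e-17.

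Per kilobase of exon, Wls was at 4333 normalized counts in SCO, which ranked 740 among protein-coding genes by mean level there, and at 391 in hippocampus, rank 5409. Porcn, the acyltransferase that readies Wnt proteins for Wls, was at 618 and 656 per kilobase. Its library values were 1628, 1942, 1991 and 1858 normalized counts in SCO and 1077, 1284, 2120, 2379 and 2984 in hippocampus, and the SCO values lay inside the hippocampus range (limma: adjusted p = 0.992, log2 fold change 0.01 with SE 0.35). Of the secretion factors, then, Wls was called and Porcn was not, and the difference between them was not itself tested. In GRCm38 the Wls gene spans chromosome 3, 159839672 to 159938664, plus strand, and its values sum all reads counted for the gene.

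Of the 58 members with enough reads to test (mean at or above 1 in SCO or in hippocampus), 7 passed an adjusted p of 0.05 in limma, 5 higher in SCO (Wls, Wnt9a, Fzd10, Ror2 and Notum) and 2 lower (Frzb and Sfrp1). Over all 28150 genes tested, 3.05% passed, 1.71% higher and 1.34% lower in SCO. Among protein-coding genes the share was 4.00%, 2.31% higher and 1.69% lower. The share of members called was above these, a difference that was not tested. At an unadjusted p of 0.05 in limma, 10 members were higher and 8 lower in SCO. Of all 28150 genes tested 2344 were higher and 2010 lower at that level, and of 17061 protein-coding genes 1856 and 1502. The counts at an unadjusted p given below for single roles and lists stand beside these. Members had a median log2 fold change of -0.14, beside -0.04 for all genes tested, with 28 members above 0 and 30 below. Libraries of the tissues did not overlap for 11 members, where 8.53% of all genes tested and 10.7% of protein-coding genes had no overlap.

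**Figure D1:**
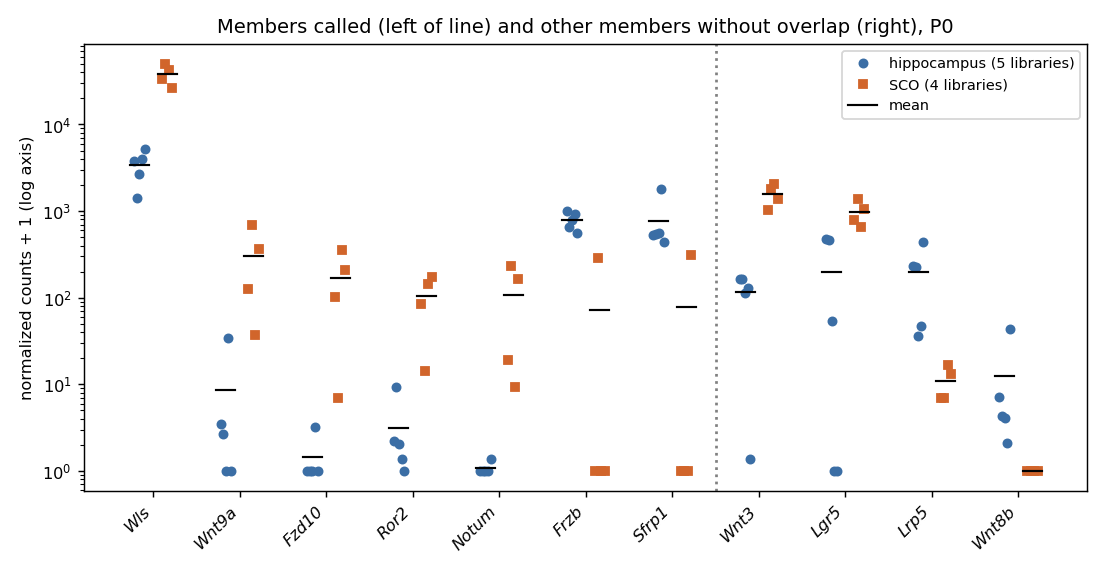
Normalized counts + 1 on a log axis in each library of SCO (squares, 4 libraries) and hippocampus (circles, 5 libraries), with black bars for the mean, for the 7 members called and the 4 others without overlap. Wls is far above the rest in SCO; Frzb and Sfrp1 are at 0 in 3 of 4 SCO libraries; in hippocampus Fzd10 and Notum reach at most 2.19 and 0.381, while Ror2 reaches 8.25 and Wnt9a 33.6, close to the lowest SCO value of Wnt9a, 36.5.

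Only the Wls call held with every library left out. Those of Notum and Fzd10 ended in 6 of the 9 cases, that of Ror2 in 7, and those of Wnt9a, Frzb and Sfrp1 in 8 each, with adjusted p of at most 0.131. Frzb stayed called only without SCO replicate 2, and Sfrp1 only without SCO replicate 4. Each of these libraries held all SCO reads of its gene. Those fits leave the gene at 0 in every SCO library, so they add no support for a difference. In edgeR, Wls and Notum passed, 2 of the 7, where 1.79% of all genes passed. In DESeq2 on the recovered reads 9 members passed, among them Wls, Notum, Fzd10, Ror2 and Wnt9a, where 12.6% of all genes passed. The authors' deposited table gives an adjusted p for 48 members, of which 9 are under 0.05, beside 12.7% of all its genes with one. There Wls, Notum, Fzd10, Ror2, Wnt9a, Wnt3, Axin1 and Wif1 are higher and Lrp5 is lower in SCO.

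The 250 bases before the RefSeq start site (build GRCm38.p6) are printed to show how unlike these starts are. They are given for the 4 members called higher in SCO whose promoter is in the RefSeq set. CpG dinucleotides are in capitals, and each sequence runs 5′ to 3′ on the strand of its gene. They lie at chr3:159839400-159839649 (Wls, plus), chr11:59306680-59306929 (Wnt9a, plus), chr5:128600856-128601105 (Fzd10, plus) and chr13:53286125-53286374 (Ror2, minus). The Fzd10 stretch lies inside the gene (128600844 to 128604093) in GENCODE M21, the annotation used for levels per kilobase. Its bases are therefore upstream of the RefSeq start only.
Wls: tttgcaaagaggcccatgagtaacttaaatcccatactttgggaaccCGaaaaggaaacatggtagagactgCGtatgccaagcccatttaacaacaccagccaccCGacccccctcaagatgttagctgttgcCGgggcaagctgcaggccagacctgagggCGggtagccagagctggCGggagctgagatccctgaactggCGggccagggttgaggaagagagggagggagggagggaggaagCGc
Wnt9a: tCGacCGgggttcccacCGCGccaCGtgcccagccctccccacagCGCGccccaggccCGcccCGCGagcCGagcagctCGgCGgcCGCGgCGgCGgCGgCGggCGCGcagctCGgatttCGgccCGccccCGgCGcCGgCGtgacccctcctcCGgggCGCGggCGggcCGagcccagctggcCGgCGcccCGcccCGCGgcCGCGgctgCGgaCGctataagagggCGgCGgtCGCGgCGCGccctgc
Fzd10: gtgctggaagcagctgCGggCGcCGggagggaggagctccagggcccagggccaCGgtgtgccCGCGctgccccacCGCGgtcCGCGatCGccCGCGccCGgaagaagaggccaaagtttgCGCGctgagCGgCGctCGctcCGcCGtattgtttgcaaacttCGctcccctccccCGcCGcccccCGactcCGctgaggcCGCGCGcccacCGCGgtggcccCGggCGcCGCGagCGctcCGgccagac
Ror2: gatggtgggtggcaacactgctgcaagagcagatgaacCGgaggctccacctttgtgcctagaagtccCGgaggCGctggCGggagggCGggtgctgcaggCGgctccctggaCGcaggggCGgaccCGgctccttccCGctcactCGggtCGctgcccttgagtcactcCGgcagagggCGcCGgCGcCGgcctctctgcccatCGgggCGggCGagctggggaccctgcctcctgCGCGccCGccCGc
The Wls promoter has 8 CpGs and 58.0% G and C. Those of Wnt9a, Fzd10 and Ror2 have 48, 37 and 24 CpGs and 84.4%, 76.4% and 73.2% G and C. Over all 32851 promoters of the set the medians are 6 CpGs and 52.4%, and over the 42 promoters of 38 members they are 18.5 and 65.2%. So Wls, with the highest level of the 4, has the least CpG-rich start, close to the median of all promoters. For TCF/LEF factors, the word CTTTGAA and its variant CTTTGAT, the word CTTTGTA and its variant CTTTGTT were searched on either strand. At least 1 of them is in 14.8% of all promoters over these 250 bases, and in 4 of the 42 member promoters (Dkk1, Fzd7, and 1 of several starts each of Wnt11 and Wnt5b). The OTX word TAATCC is in 6.25% of all and in 4 of the 42 (Fzd1, Sfrp2, and 1 start each of Rnf43 and Wnt11). The 5 called members with a promoter in the set, Wls, Wnt9a, Fzd10, Ror2 and Frzb, hold neither.

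Among the 16 ligands tested, 1 rose, Wnt9a, and 0 fell in limma. At an unadjusted p of 0.05, 3 were higher and 2 lower, edgeR called 0 and DESeq2 called 2. It encodes a Wnt known from joint formation and the origin of blood stem cells. SCO replicates 1 to 4 held 125, 698, 36.5 and 360 normalized counts of it, and hippocampus replicates 1 to 5 held 2.50, 1.65, 0, 33.6 and 0. Replicate 3 of SCO was barely above replicate 4 of hippocampus, and no library crossed. The means were 305 ± 296 and 7.56 ± 14.6, and the gene rose by 5.87 (adjusted p = 0.0496 in limma, SE 1.38), at the very edge of the threshold. In edgeR its adjusted p was 0.222.

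Wnt3, a canonical ligand of the dorsal neural tube and of many stem cell niches, was the leading ligand of the SCO. Its values were 1034, 1818, 2067 and 1388 normalized counts in SCO and 162, 165, 114, 130 and 0.381 in hippocampus. The tissues did not overlap, and SCO had 13.8 times the mean (1577 ± 458 against 114 ± 67.3). It missed the threshold in the fit to all libraries (limma: adjusted p = 0.0905, log2 fold change 4.76 with SE 1.33). Hippocampus replicate 5, with 1 read, decided that: without it the log2 fold change was 3.43 with a limma adjusted p of 0.00434. No other left-out library brought a call of Wnt3, with a limma adjusted p of at most 0.191. In the authors' deposited table its log2 fold change was 3.79 with an adjusted p of 0.0013, while edgeR gave 3.76 with an adjusted p of 0.119.

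Per kilobase, Wnt3 made up 44.5% of the summed ligand level in SCO, at 513 ± 149 (SD, n = 4). Next in order were Wnt5b at 125 ± 104, Wnt7b at 124 ± 133, Wnt9a at 91.7 ± 88.8 and Wnt5a at 87.2 ± 64.0, neighbours whose spreads overlap. In hippocampus Wnt2 at 134 ± 108, Wnt7b at 126 ± 36.6 and Wnt5a at 124 ± 94.5 (SD, n = 5) shared the lead, with Wnt7a at 81.8 ± 95.2, and Wnt3 was at 37.1. No single ligand led there beyond the spread between libraries. Summed over the 17 ligands, SCO libraries held 1014 to 1381 normalized counts per kilobase and hippocampus libraries 331 to 896. The ranges did not overlap, with means of 1151 ± 174 and 647 ± 236. Wnt3 carried the separation: without it SCO libraries held 347 to 790 and hippocampus libraries 289 to 896, with overlap, and means of 638 ± 199 and 610 ± 244.

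**Figure D2:**
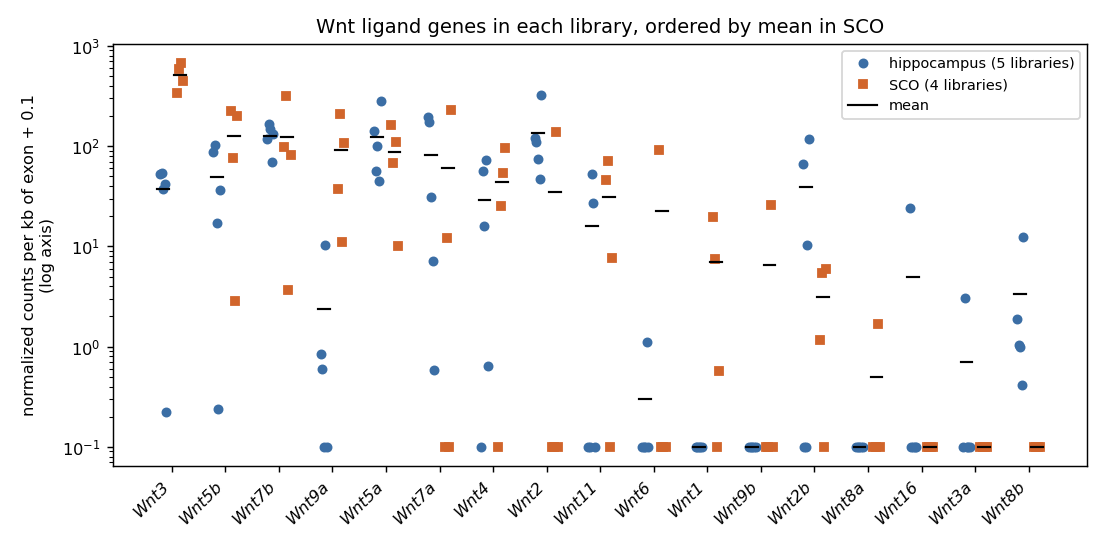
Normalized counts per kilobase of exon + 0.1, on a log axis, of the 17 ligand genes in each SCO (squares) and hippocampus (circles) library, with bars for the mean. Wnt3 is the highest ligand in SCO at a mean of 513 and at 37.1 in hippocampus; Wnt7a, Wnt4, Wnt11 and others have libraries at 0 beside high libraries of the same tissue.

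Wnt2 and Wnt8b lay the other way without passing. Wnt2, a canonical ligand, had 270, 249, 168, 105 and 722 normalized counts in hippocampus and 0, 0, 315 and 0 in SCO (limma: adjusted p = 0.107, log2 fold change -5.86 with SE 1.73). Its only SCO reads were in replicate 3, and without that library the log2 fold change was -7.94 with a limma adjusted p of 0.0054. That fit leaves Wnt2 at 0 in every SCO library, so it adds no support for a difference. No other left-out library brought a call of Wnt2, with a limma adjusted p of at most 0.226. Wnt8b, a ligand of the embryonic cortical hem, was at 0 in all 4 SCO libraries and at 6.24, 3.30, 3.10, 1.10 and 43.0 in hippocampus. Only hippocampus replicate 5 stood well above 3 reads. A count of 0 was taken to allow up to 3 reads in each library, 3.75 normalized counts on average in SCO. On that limit, which covers counting error and not variation between libraries, Wnt8b was at least 3.03-fold lower in SCO. Hippocampus replicate 5 carried that limit: without it the hippocampus mean was 3.43, under the limit in SCO, and no bound is left. Wnt8b was not called (limma adjusted p = 0.186).

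Wnt1, the classical ligand of the midbrain roof, had 0 reads in all 5 hippocampus libraries and 46.3, 17.7, 0 and 1.12 normalized counts in SCO. Against the same limit in hippocampus, 2.81 on average and again for counting error only, its SCO mean was at least 5.80-fold higher. Without SCO replicate 1 that mean was at least 2.24-fold higher. Wnt1 was not called (limma adjusted p = 0.274). Wnt3a, the hem ligand, was at 0 except for 8.25 in hippocampus replicate 2. Wnt8a was at 2.74 in SCO replicate 3 and at 0 elsewhere, too low to test. Wnt9b, Wnt6 and Wnt16 were each seen above 5 in 1 library alone: Wnt9b at 116 in SCO replicate 3, Wnt6 at 198 in SCO replicate 1 and Wnt16 at 105 in hippocampus replicate 1. These ligands thus show no level shared by the replicates of a tissue.

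Wnt7b, which acts on brain vessels and on dendrites, had means of 609 ± 651 in SCO and 617 ± 179 in hippocampus, with 485, 1537, 17.3 and 397 in SCO replicates 1 to 4 and 572, 812, 719, 339 and 640 in hippocampus replicates 1 to 5 (limma: adjusted p = 0.643, log2 fold change -1.12 with SE 1.07). Wnt5a, the leading ligand of beta-catenin independent signalling, ranged from 77.2 to 1261 in SCO and 347 to 2181 in hippocampus (limma adjusted p = 0.666). Wnt5b, Wnt7a, Wnt4, Wnt11 and Wnt2b also overlapped between tissues, with limma adjusted p of 0.635 to 0.845. In these ligands the range inside a tissue was as wide as the range across tissues.

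Of the receptors, 2 of 14 rose and 0 fell in limma. At an unadjusted p of 0.05, 2 were higher and 3 lower, edgeR called 0 and DESeq2 called 3. Fzd10, a Frizzled receptor of the dorsal neural tube, had 101, 5.91, 354 and 208 normalized counts in SCO. In hippocampus it had 6 reads, all in replicate 4 (2.19 normalized counts), and 0 in the other 4 libraries. All SCO libraries were above all hippocampus libraries, although SCO replicate 2 was close to them. It rose by 6.08 (adjusted p = 0.0303 in limma, SE 1.27), from a mean of 0.439 ± 0.981 to 167 ± 149.

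Ror2, the receptor tyrosine kinase for Wnt5a, had 83.6, 13.3, 144 and 172 normalized counts in SCO and 1.25, 8.25, 1.03, 0.366 and 0 in hippocampus. Its tissues did not overlap, and the mean was 47.4 times as high in SCO (103 ± 70.6 against 2.18 ± 3.43). Ror2 rose by 5.04 (adjusted p = 0.0436 in limma, SE 1.15). Its relative Ror1 was mixed, at 564, 195, 0.913 and 23.5 in SCO and 0 to 338 in hippocampus (limma adjusted p = 0.808).

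The co-receptors Lrp5 and Lrp6 were lower in mean in SCO without passing the test. Lrp5 had 5.97, 5.91, 15.5 and 12.3 normalized counts in SCO and 233, 223, 35.1, 46.8 and 436 in hippocampus. No library overlapped, and the hippocampus mean was 19.6 times the SCO mean (limma: adjusted p = 0.0877, log2 fold change -3.70 with SE 1.02). DESeq2 called it (log2 fold change -4.28, adjusted p = 5.3e-05). The authors' deposited table, from which those reads were recovered, gives -4.28 with 4.2e-05 and is not a separate result. edgeR did not call Lrp5 (adjusted p = 0.122). Lrp6 was at 110, 836, 22.8 and 129 in SCO and at 446 to 818 in hippocampus, where SCO replicate 2 alone exceeded the hippocampus range (limma adjusted p = 0.258).

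Other Frizzled genes did not separate the tissues. Per kilobase the order in SCO was Fzd6 at 103 ± 60.4, Fzd1 at 86.0 ± 68.2 and Fzd3 at 71.9 ± 39.7. In hippocampus it was Fzd1 at 192 ± 141, Fzd3 at 141 ± 92.8 and the Wnt receptor Ryk at 101 ± 53.1, and in neither list do neighbours differ beyond their spread. Fzd3, a receptor of axon guidance, had 1001, 1325, 1173 and 185 normalized counts in SCO and 3668, 1629, 2156, 776 and 824 in hippocampus (limma: adjusted p = 0.512, log2 fold change -1.06 with SE 0.67). Fzd1 had 422, 17.7, 296 and 707 in SCO and 868, 1279, 7.22, 429 and 1440 in hippocampus (limma adjusted p = 0.822). Fzd7 was at 0 in SCO replicates 2 to 4 and at 366 in replicate 1, beside 31.4 to 502 in hippocampus. Without SCO replicate 1 its log2 fold change was -7.14 with a limma adjusted p of 0.0229, in place of 0.222. That fit leaves Fzd7 at 0 in every SCO library, so it adds no support for a difference. No other left-out library brought a call of Fzd7 (limma adjusted p of at most 0.398). Fzd2, Fzd4, Fzd6, Fzd8, Fzd9 and Ryk had limma adjusted p of 0.503 to 0.669, and summed receptor levels were 409 to 709 normalized counts per kilobase in SCO and 392 to 1136 in hippocampus, with overlap.

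**Figure D3:**
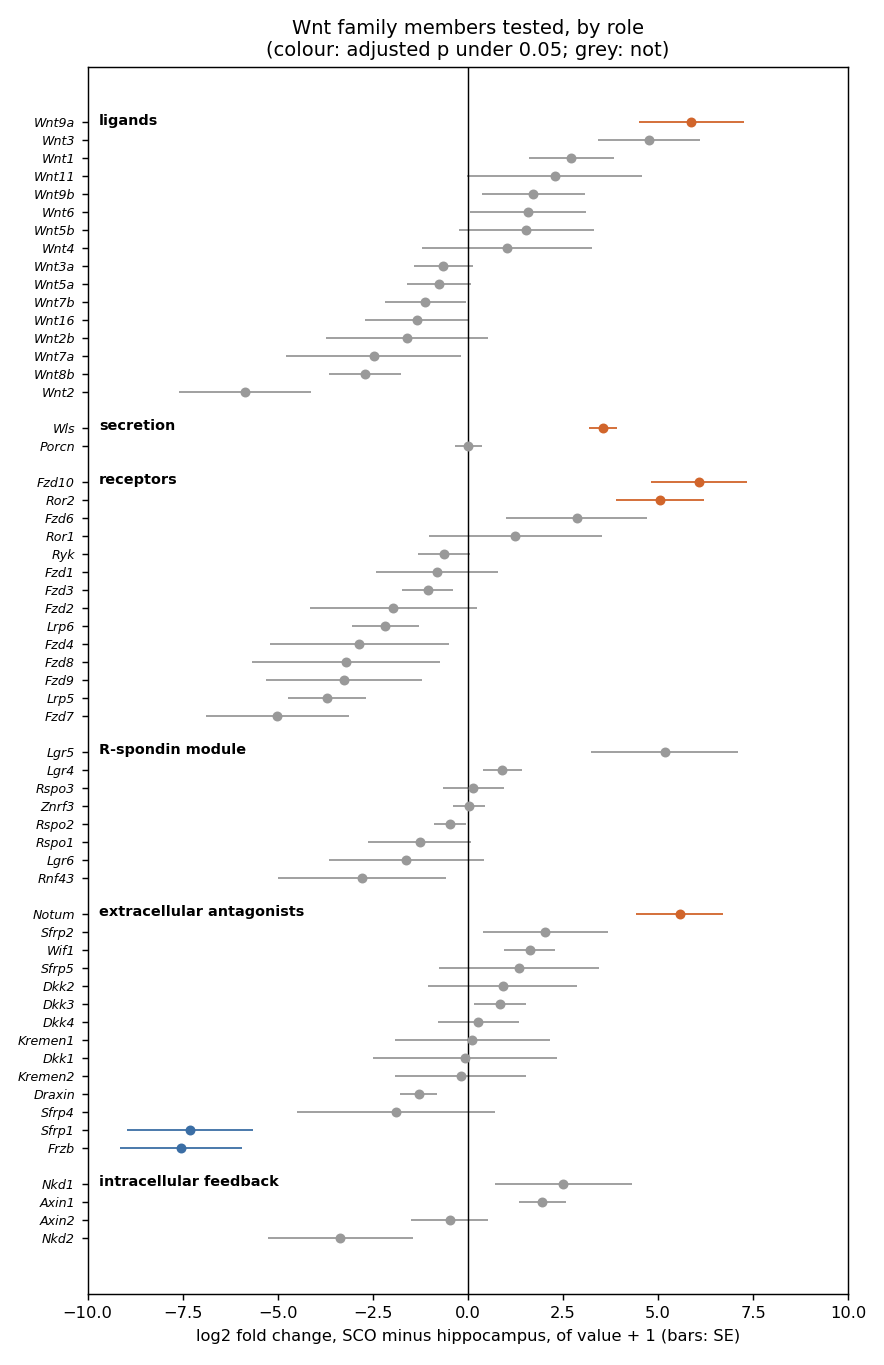
Log2 fold change (SCO minus hippocampus, of value + 1) with its SE for the 58 members tested, grouped by role and ordered within a role; coloured points passed an adjusted p of 0.05. Wls has the narrowest bar of the called members (SE 0.37), and the receptor group has 4 members above 0 and 10 below.

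In the R-spondin module 0 of 8 members were called by limma, edgeR or DESeq2, and 1, Lgr5, was under an unadjusted p of 0.05 in limma. Lgr5, a receptor for R-spondins and a stem cell marker, had 792, 1389, 657 and 1044 normalized counts in SCO and 471, 464, 52.6, 0 and 0 in hippocampus. The SCO libraries were all higher, by a mean of 971 ± 322 against 197 ± 247, but the hippocampus libraries were so uneven that the log2 fold change of 5.17 had an SE of 1.94 (limma adjusted p = 0.220). Lgr4, a broader R-spondin receptor, had 934, 2433, 1542 and 857 in SCO and 614, 1316, 875, 848 and 287 in hippocampus (limma adjusted p = 0.445).

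Rspo3, the R-spondin of the hem and of vessels, was the member of this module with the highest level in both tissues, at 929 ± 1050 normalized counts per kilobase in SCO and 465 ± 139 in hippocampus. Its SCO values were 7570, 2290, 230 and 1392 normalized counts, on both sides of the hippocampus values of 2095, 1540, 1432, 1101 and 1016 (limma: adjusted p = 0.944, log2 fold change 0.15 with SE 0.81). SCO replicate 1 was also the only SCO library with reads of Dkk1 (918), Fzd7 and Wnt6, and it held 846 of Sfrp4, beside at most 12.8 in the other SCO libraries. In that library the summed markers of meningeal fibroblasts were 9829 normalized counts, between the 2498 and 14490 of the other SCO libraries and within the 2174 to 11590 of hippocampus, and their part in these values was not tested. Rspo2 overlapped, with 394 to 795 in SCO and 503 to 1418 in hippocampus. Rspo1 had 2 reads in SCO and 95 in hippocampus, nearly all of the latter in replicate 3. Znrf3, which removes Frizzled from the membrane, had 1055 to 1556 in SCO, inside its hippocampus range of 532 to 2118 (log2 fold change 0.03), and Rnf43 and Lgr6 were at 0 in some libraries of each tissue (limma adjusted p = 0.594 and 0.704).

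Among the extracellular antagonists, Notum rose and Frzb and Sfrp1 fell, 3 of 14. Notum, a secreted enzyme that strips the lipid from Wnt proteins and is itself a target of Wnt signalling, had 17.9, 232, 8.22 and 163 normalized counts in SCO. The hippocampus held 1 read of it over 5 libraries (0.381 normalized counts in replicate 5), against 324 reads in SCO. At their pooled depth the ratio was 752, with an exact 95% interval of 134 to 29800 that covers counting error only. Notum rose by 5.57 (adjusted p = 0.0287 in limma, SE 1.14) and passed in edgeR (adjusted p = 0.0420). Antisense genes share exons with Notum, and the sources used here do not say whether counting used strand, so reads of the one cannot be told from the others. The same holds for Axin2, Fzd6, Kremen2, Rspo3, Sfrp2, Wnt5a and Wnt7b, and Wnt11 shares exons with a pseudogene.

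Frzb and Sfrp1, secreted proteins that bind Wnts through a Frizzled-like domain, showed the opposite pattern. Frzb had 1004, 654, 798, 929 and 553 normalized counts in hippocampus and 0, 286, 0 and 0 in SCO. Sfrp1 had 533, 546, 554, 1796 and 433 in hippocampus and 0, 0, 0 and 307 in SCO. In each gene the tissues did not overlap and 1 SCO library held all SCO reads, a different library for each. Frzb fell by 7.55 (adjusted p = 0.0336 in limma, SE 1.61) and Sfrp1 fell by 7.30 (adjusted p = 0.0427 in limma, SE 1.66). The means in SCO and hippocampus were 71.6 ± 143 and 787 ± 187 for Frzb, and 76.7 ± 153 and 773 ± 574 for Sfrp1. Neither passed in edgeR (adjusted p = 0.312 and 0.346) or DESeq2 (0.209 and 0.247). The log2 fold changes of Frzb and Sfrp1 were -3.52 and -3.35 in edgeR and -3.46 and -3.33 in DESeq2. Both genes thus changed less in these fits than in limma, whose log scale exceeds the ratio of means where zeros and high values mix. Summed markers of hippocampal excitatory neurons were 113900 to 154700 normalized counts in hippocampus and 5758, 8783, 10220 and 7173 in SCO replicates 1 to 4, and their part in the Frzb and Sfrp1 values was not tested. In bulk tissue, fewer cells of a type and less RNA per cell cannot be told apart.

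Dkk3, a divergent Dickkopf protein, had the highest mean per kilobase of the antagonists in both tissues, at 4478 ± 2281 normalized counts in SCO (n = 4) and 2955 ± 1804 in hippocampus (n = 5). In SCO it did not differ in level from Wls, at 4333 ± 1145, beyond their spread, and without SCO replicate 3 the means were 3510 for Dkk3 and 4152 for Wls. Library values of Dkk3 were 6131, 13818, 24791 and 15425 in SCO and 8349, 1319, 14014, 17154 and 8795 in hippocampus, with overlap (limma: adjusted p = 0.598, log2 fold change 0.84 with SE 0.69). Draxin, which blocks Lrp6 and guides commissural axons, was lower in 3 SCO libraries at 466, 408 and 482, while SCO replicate 3 had 1956, inside the hippocampus values of 1749, 2123, 1318, 1441 and 1477. It did not pass (limma: adjusted p = 0.213, log2 fold change -1.29 with SE 0.48), but without SCO replicate 3 its log2 fold change was -1.82 with a limma adjusted p of 0.0265. No other left-out library brought a call of Draxin (limma adjusted p of at most 0.396).

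Wif1, a secreted Wnt trap, had 1434, 272, 1027 and 299 normalized counts in SCO and 111 to 383 in hippocampus (limma: adjusted p = 0.271, log2 fold change 1.63 with SE 0.67). For Wif1 the authors' deposited table gives an adjusted p of 0.034 and edgeR gave 0.234. Sfrp2 was at 289, 17.7, 762 and 872 in SCO and 1.25 to 309 in hippocampus (limma adjusted p = 0.595). Both had SCO libraries inside and above the hippocampus range. Dkk1, Dkk2, Dkk4, Sfrp4, Sfrp5, Kremen1 and Kremen2 had limma adjusted p of 0.730 to 0.990. Dkk4 stayed under 35 in every library.

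Of the intracellular feedback genes, 0 of 4 were called by limma or edgeR, 1 was under an unadjusted p of 0.05 and DESeq2 called 1, Axin1. This role was set by family name, Axin and Nkd, and not by response to the signal. Axin1 made up 76.5% of its summed level in SCO and 24.3% in hippocampus. Axin1, the scaffold of the complex that destroys beta-catenin, had 2175, 4681, 4752 and 588 normalized counts in SCO and 679, 383, 408, 711 and 970 in hippocampus. SCO replicates 1 to 3 were all above the hippocampus libraries and replicate 4 was among them. The log2 fold change was 1.96 (adjusted p = 0.135 in limma, SE 0.62), and without SCO replicate 4 it was 2.62 with a limma adjusted p of 0.0169. No other single library left out brought a call of Axin1 (limma adjusted p of at most 0.297). SCO replicate 4 was also the library with the most choroid plexus marker RNA, 194400 normalized counts summed over 12 genes, beside 17760 to 22280 in the other SCO libraries. Ttr alone was 171300 of that sum, and without Ttr and Otx2 the library held 14980 beside 9945 to 13170. The part of this in the Axin1 value was not tested.

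Axin2, the usual transcriptional readout of beta-catenin signalling, did not separate the tissues. It had 240, 41.3, 27.4 and 141 normalized counts in SCO and 257, 396, 91.8, 32.2 and 54.0 in hippocampus (limma: adjusted p = 0.837, log2 fold change -0.48 with SE 1.01). Nkd1, another target that restrains Dishevelled, had 625, 580, 6.39 and 343 in SCO and 0.381 to 157 in hippocampus (limma adjusted p = 0.565). Nkd2 had 836, 0, 1229 and 612 in SCO and 4186, 284, 2534, 1225 and 3003 in hippocampus (limma adjusted p = 0.448). Of the usual target genes among the members, Notum was called and Axin2, Nkd1, Znrf3, Rnf43 and Lgr5 were not.

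**Figure D4:**
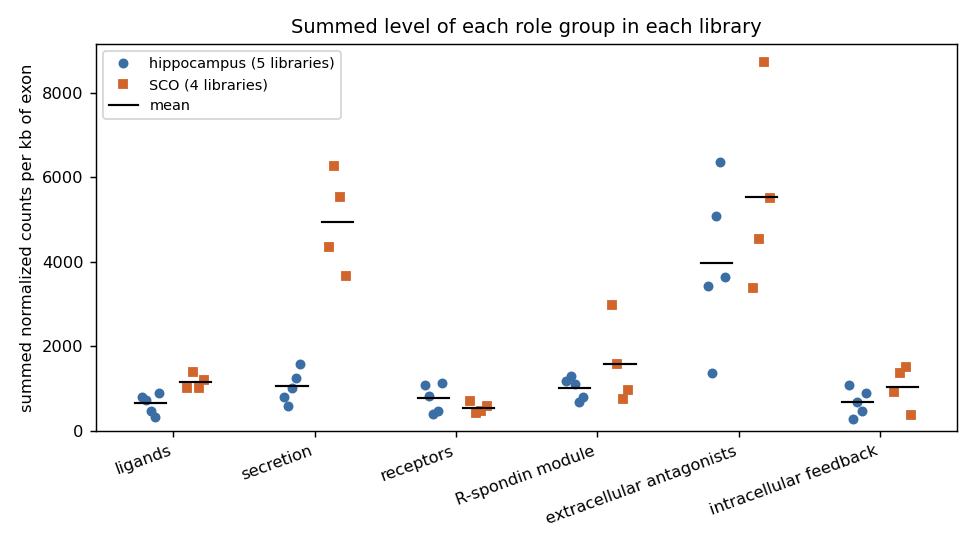
Normalized counts per kilobase of exon summed over the members of each role in each SCO (squares) and hippocampus (circles) library, with bars for the mean. The ligand and secretion sums do not overlap between tissues, the ligand sum only with Wnt3 included, while those of the receptors, R-spondin module, antagonists and intracellular feedback genes do.

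The unevenness between libraries of one tissue was part of the pattern of these genes. In SCO, 20 of the 59 members had 0 reads in 1 library and at least 100 normalized counts in another, and in hippocampus 16 did; 27 members did so in at least 1 tissue. Among protein-coding genes tested the shares were 13.7% in SCO and 11.3% in hippocampus. At a depth of 35379988 to 151009954 reads per library, 3 reads were 1.10 to 4.95 normalized counts, a floor that covers counting error only. The cause of the zeros was not tested. No SCO library stood out by zeros, with 17 or 18 members at 0 in each; in hippocampus the count was 8 to 17, the lowest in replicate 4, the most deeply sequenced.

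The labelled tissues were checked against defining markers. The 7 SCO markers in the table, Sspo, Spdef, Car3, Pax6, Msx1, Lmx1a and Cfap52, summed to 25230 to 50930 normalized counts in SCO and 1293 to 4087 in hippocampus, and 5 of them rose. Lmx1a did not separate the tissues, at 0, 402, 72.1 and 0 in SCO and 287, 1.65, 340, 219 and 0 in hippocampus. Markers of habenular, thalamic and pretectal neurons, neighbours of the SCO, summed to 54140 to 89910 in SCO and 5660 to 11600 in hippocampus. Microglial, endothelial and red blood cell markers were also higher in sum in every SCO library than in any hippocampus library. So were markers of motile ciliated ependyma, a list that shares Cfap52 with the SCO markers, at 19640 to 42850 in SCO and 4596 to 9127 in hippocampus. The part of these cells in the member values was not tested. Choroid plexus markers without Otx2, which SCO cells also express, and Ttr summed to 9945 to 14980 in SCO and 635 to 1832 in hippocampus, in SCO mostly Calml4 and Folr1. SCO replicate 4 also held 2835 of Kcnj13, 1481 of Prlr, 385 of Clic6 and 368 of Slc4a5, and was the highest SCO library for these, Folr1 and Steap1. It was not the highest for Aqp1, Cldn2 and Calml4. Aqp1 was at 462 there and 1373 in SCO replicate 1, and Cldn2 at 859 there and 879 in SCO replicate 2. Calml4 was lowest in SCO replicate 4, at 5219. Kl was at or near 0 in every library of both tissues. Wls was at 26668 in SCO replicate 4 and at 33418 to 49438 in the other SCO libraries, and the part of choroid plexus RNA in its values was not tested.

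Outside the 59 members, 95 further genes of the pathway in 5 lists were tested, and 5 were called, 2 higher and 3 lower in SCO. That is little above the 3.05% of all genes and 4.00% of protein-coding genes called, a difference that was not tested. At an unadjusted p of 0.05 in limma, 12 of the 95 were higher and 19 lower. The 95 genes had a median log2 fold change of -0.28, beside -0.04 for all genes tested. The nuclear factor Tcf7l2, a DNA partner of beta-catenin, had 31470, 22200, 45660 and 49660 normalized counts in SCO and 371, 617, 52.6, 244 and 53.7 in hippocampus. No library came near the other tissue. Tcf7l2 rose by 7.66 (adjusted p = 0.000589 in limma, SE 0.73), the call held with each library left out, and edgeR also called it (adjusted p = 0.00285). It is also a marker of thalamic neurons: the other 10 genes of the neighbouring neuron list summed to 31940 to 41030 in SCO and 5416 to 10980 in hippocampus, and their part in the Tcf7l2 difference was not tested.

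The remaining nuclear factors did not pass, 1 of 15 being called in the list. Lef1 had a mean of 2070 ± 339 in SCO and 1120 ± 603 in hippocampus (limma adjusted p = 0.236), and Tcf7 197 ± 163 and 3.16 ± 3.67 (limma adjusted p = 0.0893). Both are partners of beta-catenin and targets of it. Of 19 genes of the intracellular core, Apc fell by 1.19 on the log2 scale (adjusted p = 0.0165 in limma, SE 0.22) and 0 rose, with 5 lower and 0 higher at an unadjusted p of 0.05. Without hippocampus replicate 3 the limma adjusted p of Apc was 0.0512. DESeq2 called 3 of them and edgeR 1. Apc, the scaffold that helps destroy beta-catenin, had means of 4408 ± 437 in SCO and 10200 ± 2117 in hippocampus. Beta-catenin itself, Ctnnb1, was even, at 17120 ± 4897 and 16440 ± 5531 (log2 fold change 0.08, limma adjusted p = 0.911).

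Of 24 planar polarity genes, Prickle2 fell by 1.75 (adjusted p = 0.0217 in limma, SE 0.34), from 2157 ± 323 in hippocampus to 670 ± 269 in SCO, a call that 4 of the 9 left-out libraries ended. Among 18 feedback and target genes outside the members, Prox1 fell by 1.94 (adjusted p = 0.0219 in limma, SE 0.38), a call that 5 left-out libraries ended. Prox1 is a regulator of dentate granule neurons and one of the hippocampal markers. Irx3, a homeobox gene, rose by 5.17 (adjusted p = 0.0106 in limma, SE 0.87), from 0 reads in hippocampus to 10.1 to 69.4 normalized counts in SCO, and the call held with each library left out but not in edgeR (adjusted p = 0.0879). It was named after its values were seen, since its level is below that set for naming. Of 26 further extracellular modulators 0 were called by limma or edgeR, 7 were under an unadjusted p of 0.05 and DESeq2 called 5. Sostdc1, a secreted antagonist of Wnt and BMP signalling also named after its values were seen, had 2748, 1452, 716 and 5809 in SCO and 225 to 688 in hippocampus (limma adjusted p = 0.0596).

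**Figure D5:**
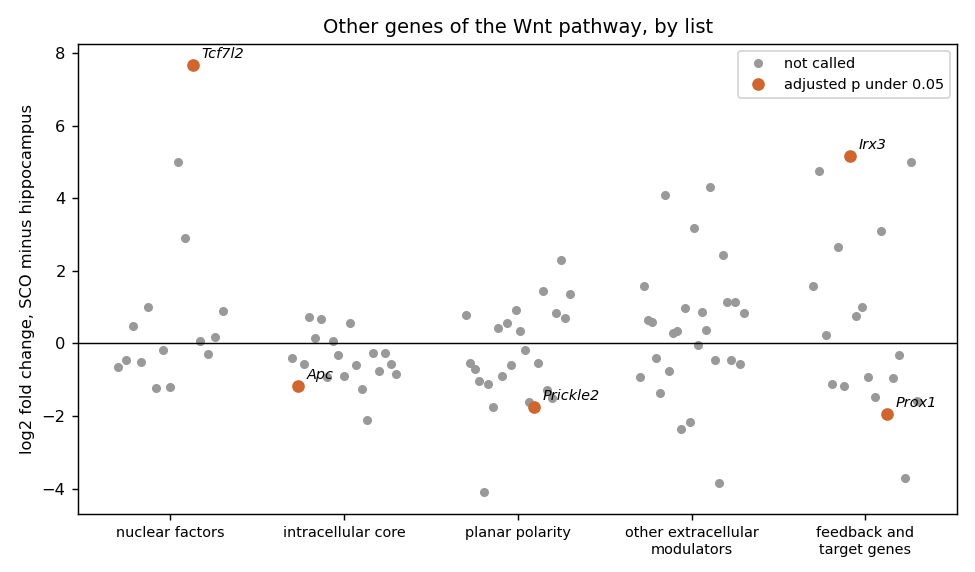
Log2 fold change (SCO minus hippocampus) of the other Wnt pathway genes in 5 lists, 1 point a gene, with called genes in colour and named. Tcf7l2 and Irx3 are the called genes above 0, at 7.66 and 5.17, and Apc, Prickle2 and Prox1 those below.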

How the data were processed

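Bulk RNA sequencing values of 9 P0 libraries were used, 5 of hippocampus and 4 of SCO. FastQC, HISAT, HISAT2, featureCounts, DESeq2 and the build GRCm38 are named, per the submitters' processing notes. The sources used here do not give versions, annotation or strand setting. The deposited library values are a normalized signal, read counts divided by a size factor, and the deposited table also holds the authors' log2 fold change with its error, a test statistic (a score), p-value and adjusted p-value. Dividing by the value of 1 read gave whole reads for 100% of values (tolerance 1e-06), or 35379988 to 151009954 reads per library. The number of columns from other series was 0.

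The main test was limma-trend (limma 3.58.1, R 4.3.3) on log2(value + 1), a pseudocount of 1, over 28150 genes whose mean reached 1 in SCO or in hippocampus, with Benjamini-Hochberg adjustment over all of them. This log scale understates the change of low genes, and exceeds the ratio of means where a tissue mixes zeros and high values. edgeR 4.0.16 and DESeq2 1.42.0 on the recovered reads, other pseudocounts, filters and scalings, a replicate block and left-out libraries were alternatives; edgeR called 503 genes. The limma code was checked on simulated counts. Levels between genes are per kilobase of exon in GENCODE M21, which matched all 59 members by versioned identifier. Figures were drawn with matplotlib 3.10.9.

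Members and lists were chosen with earlier results of these data known. Named with every library are called members, members without overlap and a log2 fold change of 1 or more in size, and the 2 with the highest level per kilobase in each role; of the other lists, up to 4 called genes with a mean of at least 100. Others are named as examples after their values were seen. Leave-one-out checks of the summed levels, of the limits for Wnt1 and Wnt8b and of the Dkk3 and Wls levels, the ligand sum without Wnt3 and the alternatives for the other pathway lists were added after the data were seen.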

Additional observations from a re-analysis of the deposited data

Results flagged for a closer look

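In a group of 4 or 5 libraries a single value can lie far from the others. Of 53 sets of library values checked (the named members and the summed roles, in each tissue) 9 were flagged by Dixon's test at 95%. For normally spread values chance flags about 1 in 20, but such a spread was not shown here. A set at 0 in all libraries but 1 is flagged whatever that value is, as for Frzb and Sfrp1 in SCO and Fzd10 and Notum in hippocampus. The 9 of 53 therefore cannot be set against 1 in 20. In SCO the flagged values were Draxin at 1956 in replicate 3, Frzb at 286 in replicate 2 and Sfrp1 at 307 in replicate 4. In hippocampus they were Sfrp1 at 1796, Wnt9a at 33.6 and Fzd10 at 2.19 in replicate 4, Notum at 0.381 and Wnt8b at 43.0 in replicate 5, and Ror2 at 8.25 in replicate 2. The values of Notum, Fzd10 and Ror2 are 1, 6 and 5 reads.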

How the results depend on the processing

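Of 399 log2 fold changes of 21 named members under the alternatives, 319 kept their side of the threshold, 72 lost the call, 8 gained it and 0 called values changed sign. Most of the 319 belong to members not called in the main fit, which had no call to lose. All 72 losses fall on the called members, for which more values lost the call than kept it. Genes called numbered 859, and 503 in edgeR, 2706 in DESeq2 and 498 to 1077 with a library left out. Members called higher in SCO numbered 5, and 3 with a pseudocount of 10, 3 without a filter on low values, 2 in edgeR, 8 in DESeq2, 2 without SCO replicate 4 and hippocampus replicate 2 together, and 1 to 4 with a library left out. Members called lower numbered 2, and 0 without a filter, 0 in edgeR, 1 in DESeq2, 1 without that pair and 0 to 2 with a library left out. These counts include members not called in the main fit. The 1 lower in DESeq2 was Lrp5, and the 2 lower without SCO replicate 3 were Draxin and Wnt2. Neither Frzb nor Sfrp1 was called in those fits. Without SCO replicate 4 the members called higher were Wls and Axin1. The other pathway genes called numbered 5, and 21 in DESeq2 and 2 to 7 with a library left out. The cause of these shifts was not tested. Without Wnt3 the summed ligand level was 638 in place of 1151 normalized counts per kilobase in SCO and 610 in place of 647 in hippocampus. Libraries with the same replicate number did not deviate together (correlations -0.03 to 0.02), and no SCO library correlated best with its own replicate number. With a replicate block on that number 1 gene, 0 members in either direction and 0 other pathway genes were called. The deposited library names carry other numbers: SCO_6 is SCO replicate 3 and Hippo_6 is hippocampus replicate 4. That hippocampus library was the best match of SCO replicate 3, at a correlation of 0.06. A pairing by deposited name was not tested. The limit of 3 reads per library for a 0 covers counting error and not variation between libraries of a tissue. In at least 1 tissue, 27 members had 0 reads in 1 library and at least 100 normalized counts in another. This limits what can be said of Wnt1, Wnt3a, Wnt8a and Wnt8b.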
